A study of Mus musculus with 6 samples.

Results

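The 46 genes described here encode proteins that act in G2 and mitosis, from the kinase that starts mitosis to the contractile ring that separates the daughter cells. They were given as a list of gene symbols, and all 46 were matched by symbol to Ensembl identifiers through GENCODE M21. They are 46 of 54532 genes in the deposited table, and all 46 passed the filter for testing (mean FPKM not under 0.5), as did 14149 genes in all. The RNA came from ventricles of the embryonic mouse heart at E12.5, in 3 LSD1 conditional knockout samples (genotype LSD1-KO) and 3 control samples (genotype CTL). LSD1 is the histone demethylase encoded by Kdm1a. The Cre driver, the cells in which the gene was deleted, the alleles carried by the controls and any pooling of embryos are not stated in the labels. Whether replicates are distinct embryos is not stated either, so p-values reflect only how these samples scatter, in part perhaps technically.

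Entry into mitosis is driven by CDK1 bound to cyclin B, with cyclin A acting just before. The kinetochore then couples chromosomes to spindle microtubules, and the spindle checkpoint holds back the anaphase-promoting complex until every chromosome is attached. The complex, with its activator CDC20 and the conjugating enzyme UBE2C, marks cyclin B and securin for destruction, which frees separase to open cohesin. Transcripts of most of these genes accumulate in G2 and mitosis and are low in resting cells, so in a bulk sample they track the share of dividing cells as well as the RNA per dividing cell, and these cannot be told apart here. In the embryonic ventricle the cardiomyocytes themselves divide, as do endothelial, epicardial and mesenchymal cells and primitive erythroid cells in the blood.

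Many promoters of this gene class hold a CCAAT box, bound by NF-Y, and the element TTTGAA, known as the cell cycle genes homology region and bound by MuvB complexes that repress in rest and activate with B-MYB in the cycle. RefSeq promoters (GRCm38.p6, 250 bases before to 50 after the annotated start) were found for 39 of the 46 genes. TTTGAA on either strand was present in 27 of these 39 (69.2%), against 18.1% of 27025 mouse promoters of the same length. CCAAT on either strand was present in 30 of 39 (76.9%), against 37.9% of all promoters, and 23 of 39 (59%) held both, against 7.12%. The windows are shown for the 6 genes of mitotic entry with a promoter found, and for the 2 other genes with the smallest p-values below. Capitals mark both motifs, which on the reverse strand read TTCAAA for the homology region and ATTGG for the NF-Y box, and no marked matches overlap.
Ccnb1: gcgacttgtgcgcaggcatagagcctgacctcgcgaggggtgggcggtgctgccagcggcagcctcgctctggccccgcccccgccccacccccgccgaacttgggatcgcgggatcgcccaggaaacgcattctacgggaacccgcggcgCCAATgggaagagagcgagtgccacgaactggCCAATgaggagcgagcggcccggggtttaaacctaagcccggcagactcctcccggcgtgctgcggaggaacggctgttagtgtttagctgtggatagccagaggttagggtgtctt
Ccnb2: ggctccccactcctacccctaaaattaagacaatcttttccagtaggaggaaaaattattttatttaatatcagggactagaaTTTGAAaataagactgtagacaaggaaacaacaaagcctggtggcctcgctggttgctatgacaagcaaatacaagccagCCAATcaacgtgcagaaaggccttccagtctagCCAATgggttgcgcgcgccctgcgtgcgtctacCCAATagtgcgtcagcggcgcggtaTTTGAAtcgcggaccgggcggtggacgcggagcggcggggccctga
Cdk1: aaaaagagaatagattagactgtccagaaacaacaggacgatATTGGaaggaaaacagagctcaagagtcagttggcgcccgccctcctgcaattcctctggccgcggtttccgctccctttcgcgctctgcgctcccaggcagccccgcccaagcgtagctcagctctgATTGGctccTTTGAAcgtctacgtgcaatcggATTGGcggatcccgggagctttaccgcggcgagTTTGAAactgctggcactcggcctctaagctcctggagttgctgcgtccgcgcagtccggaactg
Cdc25b: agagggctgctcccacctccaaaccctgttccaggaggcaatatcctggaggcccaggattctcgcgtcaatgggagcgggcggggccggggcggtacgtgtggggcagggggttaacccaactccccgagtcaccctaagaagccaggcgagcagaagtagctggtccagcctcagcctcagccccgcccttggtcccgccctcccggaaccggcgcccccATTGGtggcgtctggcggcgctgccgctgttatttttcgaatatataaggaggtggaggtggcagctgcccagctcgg
Cks2: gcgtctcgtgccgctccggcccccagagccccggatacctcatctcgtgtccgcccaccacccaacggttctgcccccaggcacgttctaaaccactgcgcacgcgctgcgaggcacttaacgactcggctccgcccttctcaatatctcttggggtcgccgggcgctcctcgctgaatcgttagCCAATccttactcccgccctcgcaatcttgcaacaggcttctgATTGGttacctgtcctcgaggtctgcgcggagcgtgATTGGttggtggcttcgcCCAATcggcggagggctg
Plk1: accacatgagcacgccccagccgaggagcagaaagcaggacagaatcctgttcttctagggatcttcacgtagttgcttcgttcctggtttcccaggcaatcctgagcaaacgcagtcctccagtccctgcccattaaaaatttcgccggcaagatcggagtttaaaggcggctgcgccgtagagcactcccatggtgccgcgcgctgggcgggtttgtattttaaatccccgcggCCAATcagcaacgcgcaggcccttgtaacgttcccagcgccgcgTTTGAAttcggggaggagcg
Ttk: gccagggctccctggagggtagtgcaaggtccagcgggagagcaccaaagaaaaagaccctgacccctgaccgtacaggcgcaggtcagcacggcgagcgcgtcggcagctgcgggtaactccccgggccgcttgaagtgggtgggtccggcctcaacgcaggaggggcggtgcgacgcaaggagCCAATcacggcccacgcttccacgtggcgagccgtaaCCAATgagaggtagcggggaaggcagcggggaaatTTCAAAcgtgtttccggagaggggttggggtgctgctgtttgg
Cenpe: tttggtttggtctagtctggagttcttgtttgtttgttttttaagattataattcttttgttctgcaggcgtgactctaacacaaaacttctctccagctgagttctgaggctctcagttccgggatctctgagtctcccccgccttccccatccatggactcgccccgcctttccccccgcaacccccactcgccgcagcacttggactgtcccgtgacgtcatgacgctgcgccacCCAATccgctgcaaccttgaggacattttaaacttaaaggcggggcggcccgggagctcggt
Cdk1 and Ccnb2 had 2 TTTGAA and 3 CCAAT matches each. In Cdk1 the TTTGAA matches started 71 and 15 bases before the annotated start, and in Ttk the single match, on the reverse strand, started at base 8 after it. Cenpe, Cks2, Cdc25b and Ccnb1 had CCAAT but no TTTGAA in these windows. The windows lie at chr13:100786437-100786736 (minus strand) for Ccnb1, chr9:70421505-70421804 (minus) for Ccnb2, chr10:69352863-69353162 (minus) for Cdk1 and chr2:131186698-131186997 (plus) for Cdc25b. Those of Cks2, Plk1, Ttk and Cenpe lie on the plus strand at chr13:51644982-51645281, chr7:122159185-122159484, chr9:83834439-83834738 and chr3:135212313-135212612. A match describes the letters only, and binding was not measured.

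The deposited values are FPKM, fragments per kilobase of gene length and scaled to library size, which allow levels to be compared between genes. Kdm1a, the targeted gene, stood at 10.71, 11.77 and 10.96 FPKM in the knockout libraries, against 29.99, 29.73 and 22.8 FPKM in the controls, and fell (log2 change -1.22, limma adjusted p = 0.00274). The depth, as reads worked back from FPKM and exon length, was 17898947 to 20076021 a library. Each of the 46 genes had between 239 and 9211 reads in each library, so that counting error alone was at most 6.47% of a value. Knockout replicate 3 had 12.1 FPKM of Xist and 0 reads of 4 Y-linked genes, whereas the other 5 libraries had at least 3356 Y-linked reads; knockout replicate 1 had both, with 1.11 FPKM of Xist.

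None of the mitotic genes passed the test between knockout and control ventricles. By limma on log2(FPKM + 1), 0 of 46 were called higher and 0 lower at an adjusted p under 0.05, against 1.91% and 0.466% of all tested genes (2.37% in either direction). At an unadjusted p under 0.05 there were 2 of 46 (4.35%), Ttk on the lower and Cenpe on the higher side, against 16.1% of all tested genes (8.67% higher and 7.4% lower), and limma-voom on recovered reads also called 0. The ratio of the knockout mean to the control mean ran from 0.813 for Ttk to 1.16 for Cenpe, with a median of 0.94. The fitted changes carried 95% intervals that together reached from 0.668-fold (the lower bound of Bub1b) to 1.27-fold (the upper bound of Gtse1) on the log2(FPKM + 1) scale, so any change beyond those bounds is outside the interval of every one of the 46 genes.

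Most fitted changes were small and below 0. Of the 46 genes, 37 (80.4%) had a fitted log2 change below 0, against 54.1% of all tested genes, and the median was -0.08, against -0.01 over all genes. The count below 0 depended on the scaling and on the model, and all genes shifted with the scaling too. After rescaling to TPM 23 of 46 were below 0, against 4876 of 14149 tested genes. The median was then 0.00, against 0.05 over all genes. After rescaling without haemoglobin and mitochondrial genes 25 of 46 were below 0, against 5248 of 14149. The median was then -0.01, against 0.04 over all genes. With a sex score (Xist minus Y-linked levels) as covariate 29 of 46 were below 0, against 7600 of 14149, and the median was -0.03. That score mostly sets knockout replicate 3 apart, the only library without Y-linked reads, so sex and that library cannot be told apart. Leaving knockout replicate 3 out gave 30 of 46 below 0 and a median of -0.04. The groups did not overlap for 3 of 46 genes (6.52%), against 21.4% of all tested genes. These were Ttk and Cdk1 on the lower side and Cenpe on the higher side.

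**Figure D1:**
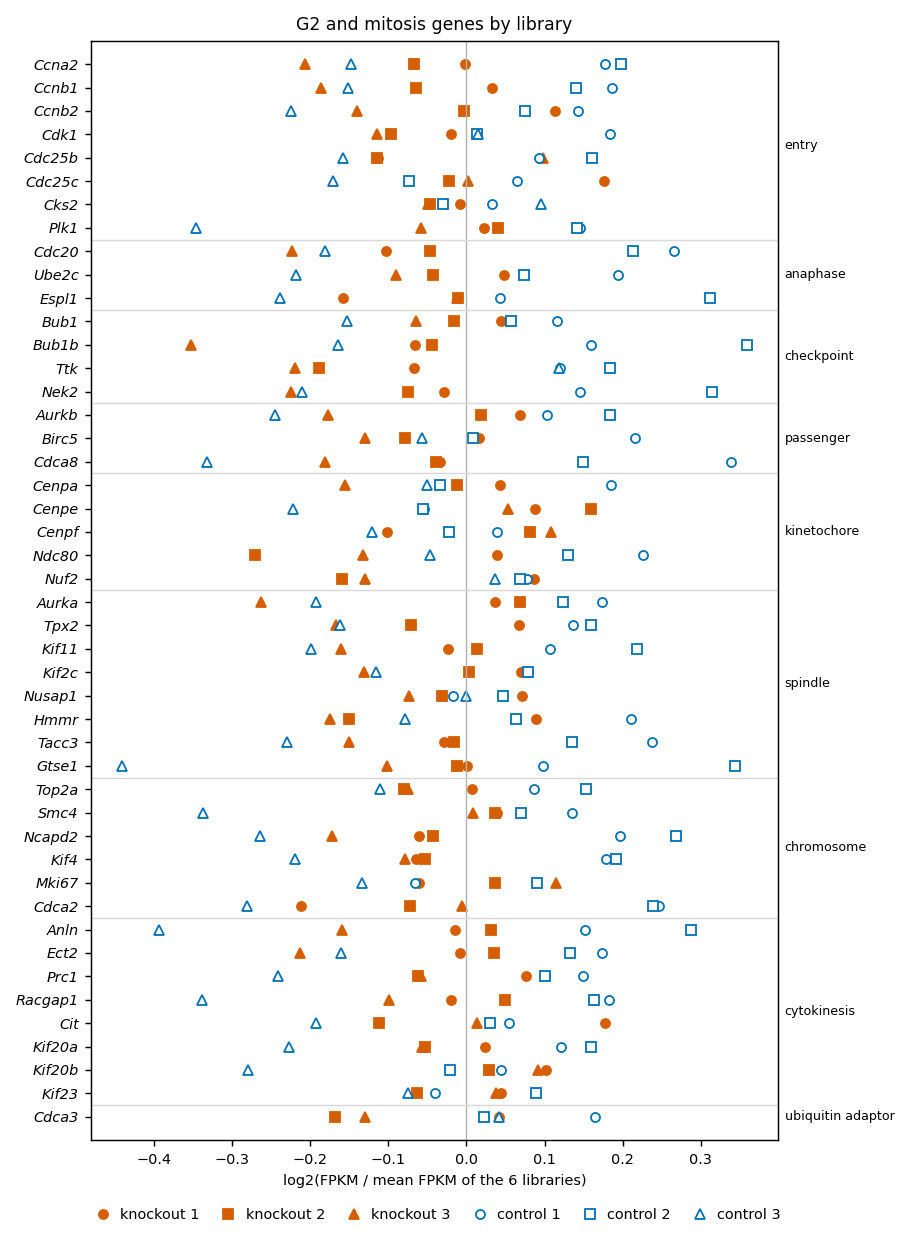
Level of each of the 46 genes in each library as log2 of its FPKM over its mean FPKM of the 6 libraries (x axis), by gene and role (y axis); filled orange marks are knockout and open blue marks control libraries, with circle, square and triangle for replicates 1, 2 and 3. Control replicate 3 lies lowest of the controls for 42 of 46 genes, and all 3 knockout libraries lie between it and both other controls for 18 of 46.

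The controls differed among themselves by more than the knockout mean differed from the control mean. The mean log2(FPKM + 1) of the 46 genes was 4.36, 4.32 and 4.26 in knockout replicates 1, 2 and 3, against 4.48, 4.47 and 4.20 in control replicates 1, 2 and 3. Every knockout library thus lay below control replicates 1 and 2 and above control replicate 3. Control replicate 3 was the lowest of the controls for 42 of 46 genes (91.3%), against 38.5% of all tested genes, and the lowest of all 6 libraries for 27 of 46 (58.7%), against 19.2%. Its level was a median 0.804 of the mean of the other 2 controls, from 0.63 for Gtse1 to 1.07 for Cks2, where the median over all tested genes was 0.992. All 3 knockout libraries lay below both control replicates 1 and 2 for 30 of 46 genes (65.2%, against 21.8% of all genes), and between these and control replicate 3 for 18 of 46 (39.1%, against 4.57%).

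The spread within groups followed the same libraries. The median coefficient of variation over the 46 genes was 6.14% in the knockout and 12.2% in the control group, against 7.99% and 9.997% over all tested genes, and 38 of 46 genes varied more among controls. Without control replicate 3, 0 of 46 genes were called (2.78% of all tested genes were), and the smallest adjusted p was 0.0576, for Cdc20. In that fit 20 of 46 (43.5%) had an unadjusted p under 0.05 on the lower side and 0 on the higher side, against 10.6% of all genes on the lower side and 20.9% on either side. The median log2 change was then -0.17 with 41 of 46 genes below 0 (53.7% of all genes), while without control replicate 1 or without control replicate 2 it was -0.03 with 28 of 46 below 0. Control replicate 3 was the lowest control for 42 of 46 genes, so leaving it out had to raise their control mean. The direction of that shift was thus set by the choice of library. Leaving out knockout replicates 1, 2 or 3 gave medians of -0.09, -0.08 and -0.04, with 0 genes called each time.

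**Figure D2:**
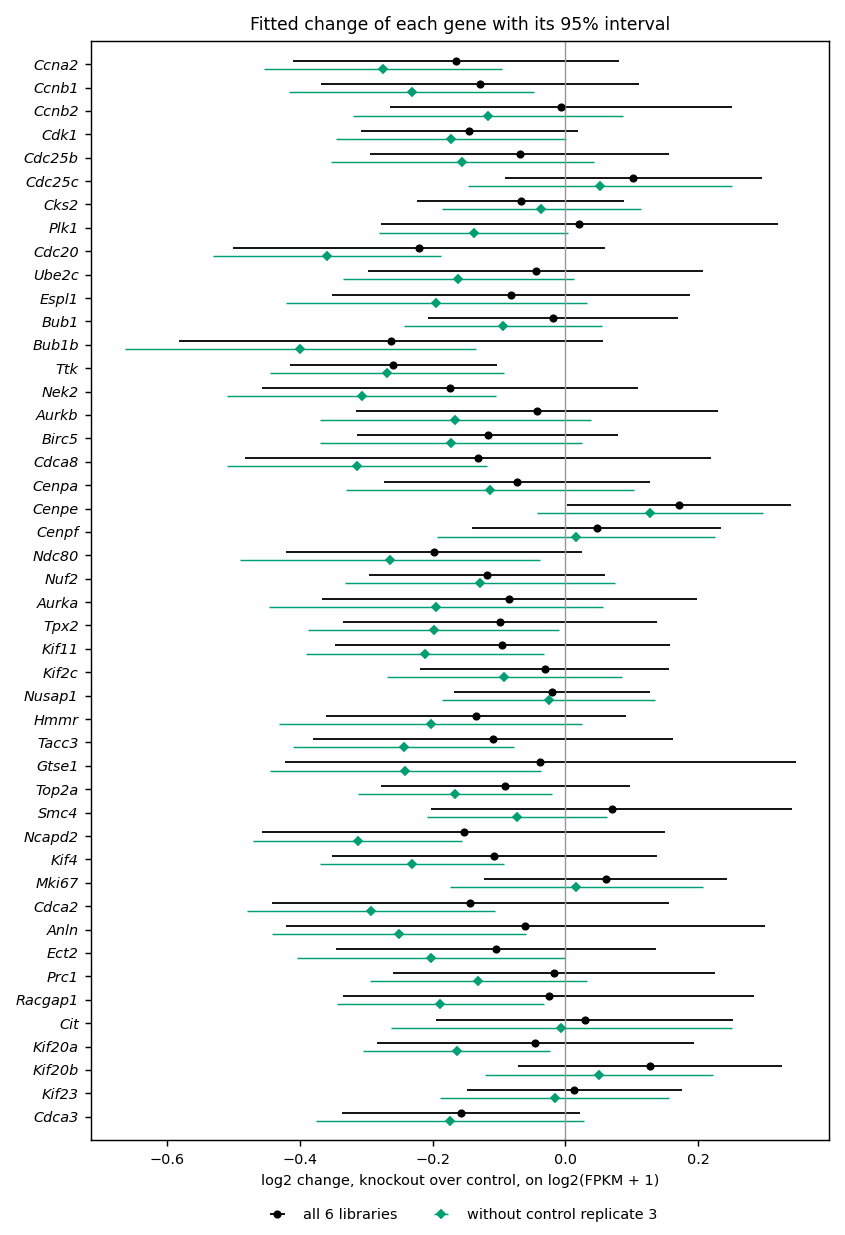
Fitted log2 change, knockout over control, of each of the 46 genes (x axis, on log2(FPKM + 1), with 95% intervals) with all 6 libraries (black circles) and without control replicate 3 (green diamonds). With all 6 libraries 44 of 46 intervals include 0, and without control replicate 3 the median moves to -0.17.

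Marker levels of several cell types also differed in control replicate 3, and cell composition itself was not measured. The summed level of 6 cardiomyocyte markers (Tnnt2, Myh6, Myh7, Actn2, Nkx2-5 and Myl7) was 3368 to 3649 FPKM in the knockout libraries, against 4136 and 3868 FPKM in control replicates 1 and 2 and 3018 FPKM in control replicate 3, which was the lowest control for 6 of 6 markers. The 7 erythroid markers summed to 13286, 6996 and 14036 FPKM in knockout replicates 1, 2 and 3. They summed to 6893, 8688 and 15591 FPKM in control replicates 1, 2 and 3. The 5 mesenchymal and cushion markers summed to 203 to 269 FPKM in knockout libraries and to 213, 213 and 346 FPKM in those controls. Control replicate 3 thus held the lowest cardiomyocyte and the highest erythroid and mesenchymal sums of the 6 libraries.

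The other marker lists also differed between libraries. Control replicate 3 had the lowest smooth muscle sum of the 6 libraries. It also had the highest endothelial, epicardial and macrophage sums of the controls. The 5 endothelial markers summed to 99.7 to 125 FPKM in knockout libraries, against 84.0, 86.2 and 123 FPKM in the controls, and 4 epicardial markers to 151 to 171 FPKM, against 135 to 165 FPKM. The 3 smooth muscle markers summed to 916 to 1072 FPKM in knockout libraries, against 754 to 1266 FPKM in controls, nearly all from Acta2, which embryonic cardiomyocytes also express, while Myh11 was at most 0.233 FPKM. The 4 macrophage markers stood at 18.9 to 23.3 FPKM in knockout libraries, against 18.003 to 22.5 FPKM in controls, and both liver markers together at most 0.789 FPKM. Sox10, a marker of neural crest and glia, stood at 5.24 FPKM in knockout replicate 1 and at most 0.611 FPKM in the other libraries, and was listed at 0 in control replicate 1. Of all these markers 0 were called by limma, with 1 (Emcn) at an unadjusted p under 0.05, and the part of cell composition in the levels of the mitotic genes was not tested.

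Among the genes of mitotic entry, 0 of 8 were called and 6 had a fitted change below 0. Cdk1, the mitotic kinase (chromosome 10, 69335146 to 69352938, minus strand, mm10), stood at 46.8, 44.3 and 43.8 FPKM in knockout libraries, against 53.8, 47.9 and 47.9 FPKM in controls. The 3 knockout values lay below the 3 control values by a narrow margin (ratio 0.902, log2 change -0.14, SE 0.07, limma adjusted p = 0.364). Its partner Ccnb1, cyclin B1, stood at 55.2, 51.6 and 47.5 FPKM in knockout libraries, against 61.4, 59.5 and 48.6 FPKM in controls, with the groups overlapping through control replicate 3. Ccnb2, cyclin B2, was at 80.1 ± 7 FPKM in knockout and 80.8 ± 10.5 FPKM in control ventricles (SD, n = 3 each). Ccna2, cyclin A2, was at 57.3 ± 4.1 FPKM in knockout and 64.6 ± 8.3 FPKM in control ventricles (limma adjusted p = 0.49).

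Cks2, a small subunit that binds CDK1, had the highest level of the 46 genes and went against the order of the libraries. It stood at 195, 189.7 and 189 FPKM in knockout libraries, against 201, 192 and 209 FPKM in controls, so control replicate 3 was its highest library. The CDK1-activating phosphatases Cdc25b and Cdc25c were at 9.98 ± 0.864 and 10.95 ± 0.841 FPKM in knockout ventricles, against 10.5 ± 1.19 and 10.1 ± 0.835 FPKM in controls (SD, n = 3 each). Plk1, the polo-like kinase that promotes entry and spindle formation, stood at 43.0, 43.5 and 40.6 FPKM in knockout libraries, against 46.8, 46.7 and 33.3 FPKM in controls. Its means were 42.4 FPKM in knockout and 42.3 FPKM in control ventricles, with 2 controls above and 1 below the whole knockout range.

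The 3 genes of anaphase onset had 0 calls and 3 fitted changes below 0. Cdc20, the activator of the anaphase-promoting complex, stood at 68.3, 71.0 and 62.8 FPKM in knockout libraries, against 88.1, 85.0 and 64.7 FPKM in controls (log2 change -0.22, SE 0.12, limma adjusted p = 0.413). Control replicates 1 and 2 lay well above every knockout library and control replicate 3 fell inside the knockout range. Ube2c, the conjugating enzyme of the complex, was at 105 ± 5.16 FPKM in knockout and 109 ± 15.6 FPKM in control ventricles, and Espl1, which encodes separase, at 4.04 ± 0.234 and 4.37 ± 0.83 FPKM (SD, n = 3 each).

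Among 4 checkpoint and mitotic kinase genes, all fitted changes were below 0 and 0 were called. Ttk, the kinase MPS1 that starts spindle checkpoint signalling (chromosome 9, 83834689 to 83872389, plus strand), stood at 6.22, 5.72 and 5.6004 FPKM in knockout libraries, against 7.08, 7.40 and 7.08 FPKM in controls. Its groups were separate and its controls varied little, control replicate 3 included, but it missed the threshold (ratio 0.813, log2 change -0.26, SE 0.07, limma adjusted p = 0.11). Without control replicate 3 the log2 change was -0.27. Bub1b, which encodes the checkpoint protein BUBR1, stood at 25.8, 26.2 and 21.2 FPKM in knockout libraries, against 30.2, 34.7 and 24.1 FPKM in controls (ratio 0.823, log2 change -0.26, SE 0.14, limma adjusted p = 0.396). Here control replicate 3 lay within the knockout range. Bub1, its kinase relative, was at 20.4 ± 0.77 FPKM in knockout and 20.7 ± 1.97 FPKM in control ventricles, and Nek2, a kinase of centrosome separation, at 8.46 ± 0.59 and 9.76 ± 1.75 FPKM (SD, n = 3 each).

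The chromosomal passenger complex corrects faulty attachments through Aurora B. Its kinase gene Aurkb was at 20.5 ± 1.8 FPKM in knockout and 21.2 ± 3.2 FPKM in control ventricles, and Cdca8, which encodes borealin, at 18.9 ± 1.07 and 21.1 ± 4.79 FPKM (SD, n = 3 each). Birc5, which encodes survivin, stood at 35.9, 33.6 and 32.4 FPKM in knockout libraries, against 41.2, 35.7 and 34.1 FPKM in controls (limma adjusted p = 0.549). All 3 genes had control replicate 3 as the lowest control, and 0 of 3 were called.

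Kinetochore and centromere genes split in direction, with 3 of 5 fitted below 0 and 0 called. Cenpe, the kinetochore motor that moves chromosomes to the spindle equator (chromosome 3, 135212537 to 135273611, plus strand), stood at 4.76, 5.01 and 4.65 FPKM in knockout libraries, against 4.32, 4.32 and 3.85 FPKM in controls. Each knockout library was above each control library, and the adjusted p was over the threshold (ratio 1.16, log2 change 0.17, SE 0.07, limma adjusted p = 0.303). Without control replicate 3 the log2 change was 0.13. Cenpa, the centromeric histone, was at 31.0 ± 2.17 FPKM in knockout and 32.6 ± 3.04 FPKM in control ventricles (SD, n = 3 each). The NDC80 complex genes Ndc80 and Nuf2, which bind microtubules, were at 6.87 ± 0.743 and 11.2 ± 1.07 FPKM in knockout ventricles, against 8.03 ± 0.758 and 12.2 ± 0.181 FPKM in controls (SD, n = 3 each). Cenpf, a large kinetochore protein, was at 2.8 ± 0.217 FPKM in knockout and 2.67 ± 0.148 FPKM in control ventricles (SD, n = 3 each).

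All 8 spindle genes had fitted changes below 0, between -0.13 and -0.02, and 0 were called. Aurka, the Aurora kinase of spindle poles, stood at 35.6, 36.4 and 29.0 FPKM in knockout libraries, against 39.2, 37.8 and 30.4 FPKM in controls. Its lowest values came from replicate 3 of each group. Its activator Tpx2 was at 27.4 ± 2.25 FPKM in knockout and 29.5 ± 3.53 FPKM in control ventricles, and the spindle motor Kif11 at 24.7 ± 1.55 and 26.6 ± 3.84 FPKM (SD, n = 3 each). Hmmr, a spindle assembly protein, had the smallest p of the class and stood at 16.7, 14.1 and 13.9 FPKM in knockout libraries, against 18.1, 16.4 and 14.8 FPKM in controls (limma adjusted p = 0.547). Gtse1, a microtubule-binding protein, varied most among controls: its knockout libraries lay between 12.3 and 13.2 FPKM, against 14.1, 16.7 and 9.69 FPKM in control replicates 1, 2 and 3.

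Chromosome structure genes had 4 of 6 fitted changes below 0 and 0 calls. Top2a, the topoisomerase that untangles sister chromatids, stood at 51.9, 48.9 and 49.1 FPKM in knockout libraries, against 54.9, 57.4 and 47.9 FPKM in controls. The condensin genes Ncapd2 and Smc4 stood apart: Ncapd2 was at 26.0 ± 1.24 FPKM in knockout and 29.3 ± 5.52 FPKM in control ventricles, and Smc4 at 36.8 ± 0.428 and 35.4 ± 5.95 FPKM (SD, n = 3 each). In both, control replicate 3 (23.0 FPKM for Ncapd2 and 28.6 FPKM for Smc4) lay below every other library. Mki67, which coats mitotic chromosomes and is the usual proliferation marker, stood at 10.4, 11.1 and 11.7 FPKM in knockout libraries, against 10.4, 11.5 and 9.88 FPKM in controls. Its groups overlapped and its 95% interval on the log2(FPKM + 1) scale ran from 0.919-fold to 1.18-fold.

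Of the 8 cytokinesis genes 5 had fitted changes below 0, 0 were called, and all 8 had control replicate 3 as the lowest control. Kif20a, a motor of the central spindle, stood at 29.4, 27.9 and 27.8 FPKM in knockout libraries, against 31.5, 32.3 and 24.7 FPKM in controls. Its relative Kif20b stood at 4.42, 4.21 and 4.39 FPKM in knockout libraries, against 4.25, 4.06 and 3.4 FPKM in controls (ratio 1.11, limma adjusted p = 0.513), overlapping through control replicate 1. The centralspindlin pair Kif23 and Racgap1 were at 8.43 ± 0.35 and 24.6 ± 1.26 FPKM in knockout ventricles, against 8.35 ± 0.508 and 25.3 ± 4.85 FPKM in controls (SD, n = 3 each). Anln, which encodes the ring scaffold anillin, was at 14.7 ± 0.994 FPKM in knockout and 15.6 ± 3.63 FPKM in control ventricles (SD, n = 3 each). Cit, which encodes citron kinase, had the lowest level of the 46 genes, at 0.88 ± 0.0889 and 0.843 ± 0.0771 FPKM (SD, n = 3 each). Cdca3, an adaptor of a ubiquitin ligase that acts at mitotic entry, stood at 36.5, 31.6 and 32.4 FPKM in knockout libraries, against 39.8, 36.0 and 36.5 FPKM in controls (limma adjusted p = 0.368).

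The genes not given singly, Cdca2, Kif4, Kif2c, Nusap1, Tacc3, Ect2 and Prc1, had ratios of knockout to control mean between 0.881 (Cdca2) and 0.986 (Nusap1), and their groups overlapped. For 6 of the 46 genes over 10% of the exon bases lie under a gene on the opposite strand. These were 29.3% of Kif20a under Cdc23, 22.8% of Ube2c under Tnnc2, and 11.1% to 15.1% of Prc1, Ccna2, Cdc25c and Kif4. Whether the libraries and the counting told the strands apart was not tested, so reads of the other gene may be included.

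**Figure D3:**
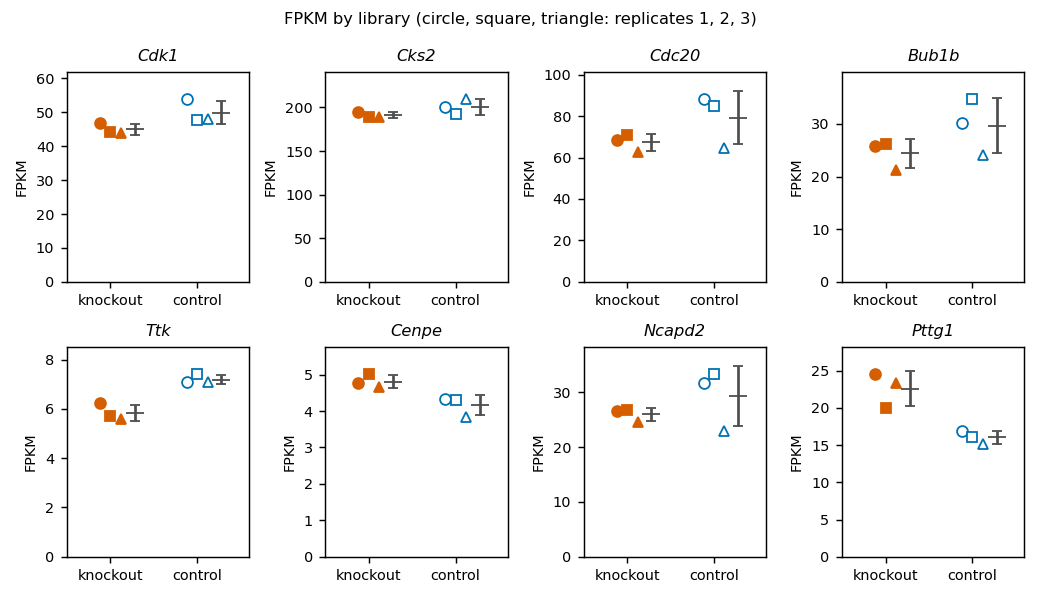
FPKM (y axis, from 0) in each knockout library (filled orange) and control library (open blue) for 7 mitotic genes and Pttg1, with the mean and SD of each group (n = 3) as a grey bar to the right. Ttk, Cdk1, Cenpe and Pttg1 have separate groups, while control replicate 3 (triangle) falls within or below the knockout range for Cdc20, Bub1b and Ncapd2.

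Of the remaining G2 and M machinery, Pttg1 was the only called gene. The 8 other lists held 136 genes, of which 134 were tested, 1 rose and 0 fell, 10 had an unadjusted p under 0.05, and 108 had a fitted change below 0 (median -0.07). Over all tested genes 2.37% were called, 16.1% had an unadjusted p under 0.05 and 54.1% had a fitted change below 0 (median -0.01). Pttg1, which encodes securin, the inhibitor of separase (chromosome 11, 43420250 to 43426251, minus strand), stood at 24.5, 19.9 and 23.3 FPKM in knockout libraries, against 16.9, 16.1 and 15.2 FPKM in controls. Every knockout library was above every control library (ratio 1.41, log2 change 0.46, SE 0.09, limma adjusted p = 0.0417), while separase itself, given above, lay slightly lower. The call was narrow: the adjusted p was 0.123 without knockout replicate 1, 0.151 without knockout replicate 3, and 0.0925, 0.115 and 0.0715 without control replicates 1, 2 and 3. It was 0.0545 with the replicate number as a block, 0.195 with a sex score as covariate and 0.105 without the filter on low values. In the other alternatives the limma adjusted p stayed under 0.05, from 0.0187 after rescaling to TPM to 0.0478 with library weights. The log2 change ran from 0.40 without knockout replicate 1 to 0.55 without knockout replicate 2.

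By list, 0 of 16 MuvB, B-MYB, FOXM1 and NF-Y regulators were called, and Nfyb, an NF-Y subunit, had the smallest p (6.88 ± 0.156 FPKM in knockout and 7.91 ± 0.648 FPKM in control ventricles, SD, n = 3 each; limma adjusted p = 0.303). Of 13 tested entry kinases and phosphatases 0 were called, with the mitotic kinase Pbk at 36.3 ± 2.28 and 40.4 ± 0.927 FPKM. Of 18 subunits and regulators of the anaphase-promoting complex 1, Pttg1, was called. None of 31 kinetochore and centromere genes was called by limma, with 3 at an unadjusted p under 0.05. Among these Spc24, a subunit of the NDC80 complex, was at 22.3 ± 1.55 and 26.9 ± 1.7 FPKM (SD, n = 3 each; limma adjusted p = 0.149).

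The other lists had 0 calls each by limma. They were 10 checkpoint and passenger partners (smallest p for Mad2l1bp, adjusted p = 0.425, with 0 at an unadjusted p under 0.05), 16 condensin and cohesin genes (Esco2, 0.256, with 2), 18 kinesins and spindle proteins (Aspm, 0.427, with 0) and 12 tested cytokinesis partners (Rock2, 0.28, with 2). For comparison, 0 of 40 S phase genes were called, with 2 at an unadjusted p under 0.05 and 33 of 40 fitted below 0 (median -0.07), beside the same 2.37%, 16.1% and 54.1% of all tested genes. The cyclin E1 gene Ccne1 had the smallest p of that list, at 15.4 ± 1.37 FPKM in knockout and 12.8 ± 1.63 FPKM in control ventricles (SD, n = 3 each; limma adjusted p = 0.279). The mean log2(FPKM + 1) of the S phase list was 4.24, 4.14 and 4.13 in knockout replicates 1, 2 and 3, against 4.32, 4.26 and 4.13 in control replicates 1, 2 and 3. Control replicate 3 was the lowest control for 25 of 40 S phase genes, 86 of 134 other G2 and M genes and 42 of the 46 mitotic genes; the difference between these shares was not tested.

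**Figure D4:**
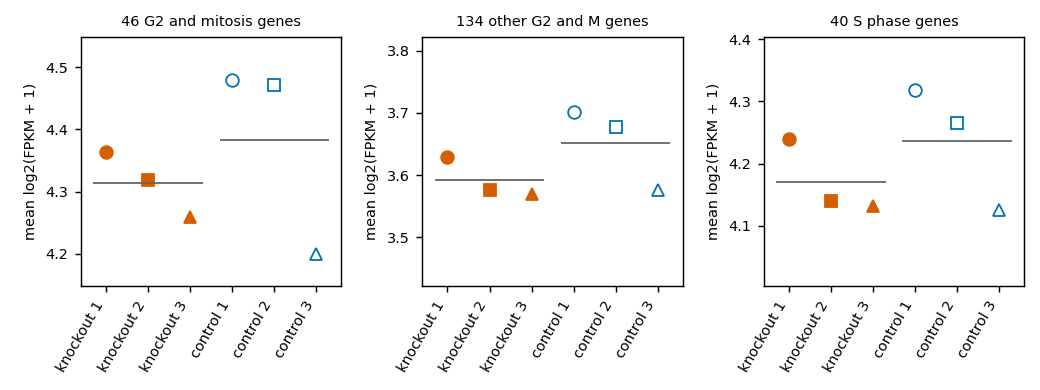
Mean log2(FPKM + 1) of the 46 genes, of 134 other G2 and M genes and of 40 S phase genes (y axes, each spanning the same range) in the 6 libraries; filled orange marks are knockout, open blue marks control, and grey lines are group means. Control replicate 3 is the lowest library for the 46 genes, at 4.20, against 4.26 in knockout replicate 3. For the S phase genes it is lowest by a narrow margin, at 4.126 against 4.133 in knockout replicate 3.

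**Figure D5:**
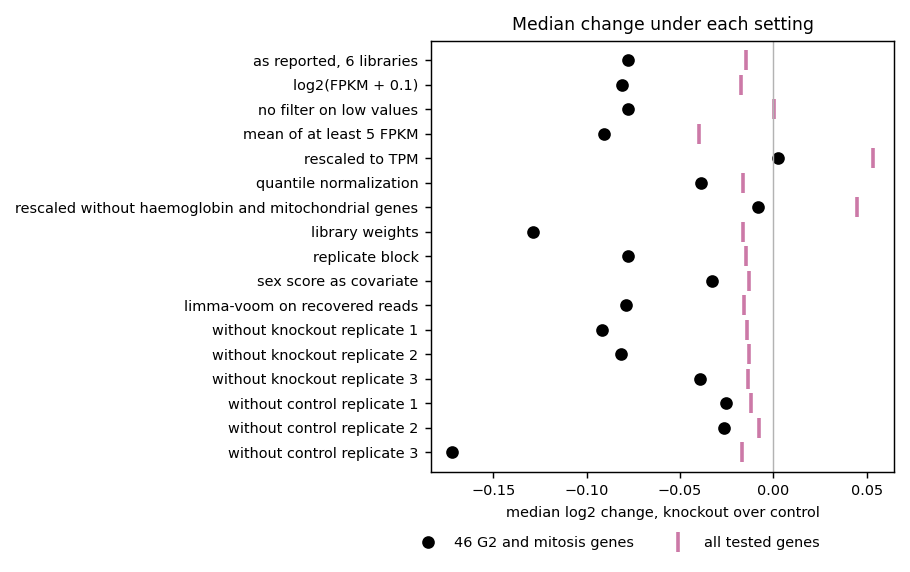
Median log2 change, knockout over control (x axis), of the 46 genes (black circles) and of all tested genes (pink bars) with all 6 libraries and under each of 16 other settings (y axis). The median of the 46 genes runs from -0.17 without control replicate 3 to 0.00 after rescaling to TPM. With the filter at a mean of 5 FPKM the circle covers only the 41 genes tested.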

How the data were processed

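The authors deposited FPKM values for 54532 Ensembl gene IDs in 6 libraries (3 knockout, 3 control). Per the labels' protocols, libraries were made from TRIzol-extracted total RNA with a NEBNext Ultra RNA kit. Per the submitters' processing notes, featureCounts 1.5.0-p3, HISAT2 2.0.5, fastp and CASAVA were among the tools and mm10 the build; the annotation, order of steps and counting settings are not given there. GENCODE M21 (GRCm38, the assembly mm10 denotes) named 54495 IDs. FPKM times exon length gave whole reads within 0.02 for 98.1% to 98.5% of genes under 30 reads in each library.

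Genes averaging 0.5 FPKM or more were fitted on log2(FPKM + 1) with limma 3.58.1 (R 4.3.3; trend, two-sided, Benjamini-Hochberg over 14149 genes, threshold 0.05). This scale understates the change of low genes. The fit was tested on simulated data only with changes larger than those of the 46 genes. That test, whose outcome is not given here, does not speak to changes of their size. The 46 genes and the lists were chosen with earlier results of these data known. Genes given in every library were the highest-level and smallest-p gene of each role, those with separate groups, and the extreme changes; others were chosen after their values were seen. Alternatives were another pseudocount, filters, scalings, library weights, a replicate block, a sex score (Xist minus Y-linked levels), limma-voom on recovered reads with TMM scaling (393 genes called higher and 96 lower), and leaving out each library. Tables came from pandas 2.3.3 and numpy 2.4.6 under Python 3.11.15, and figures from matplotlib 3.10.9.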

Additional observations from a re-analysis of the deposited data

How the results depend on the processing

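In all 16 alternatives 0 of the 46 genes were called, though only 41 of them were tested with the filter at a mean of 5 FPKM. The median log2 change was -0.08 as reported and ran from -0.17 to 0.00 over the alternatives. Leaving out 1 library gave -0.17 (control replicate 3) to -0.03. The mean log2(FPKM + 1) of the 46 genes had an SD between libraries of 0.159 in control and 0.0523 in knockout. Over all tested genes, 270 were called higher and 66 lower, against 110 and 12 without the low-value filter, 93 and 23 with the sex score, and 373 and 40 after rescaling to TPM. Called genes of the other G2 and M lists numbered 0 without the low-value filter, with the sex score or with the replicate block, and 0 to 1 when 1 library was left out; the 1 called without control replicate 3 was Spag5, lower, not Pttg1. Under the replicate block 0 of the 46 genes were called, with a smallest limma adjusted p of 0.133, for Bub1b. Its SE fell from 0.138 to 0.0653 with the block, while that of Ttk stayed at 0.067. Same-numbered libraries deviated together with correlations of -0.0021, 0.14 and 0.164 across genes, so the numbers were not taken to pair them. Replicates 2 and 3 correlated best with their own number in the other group, and replicate 1 did not. After rescaling to TPM the log2 change turned to 0.016 for Cks2, 0.039 for Ube2c, 0.0085 for Cenpa and 0.036 for Kif20a. By quantile normalization it turned to 0.032 for Cks2 and 0.035 for Ube2c, and after rescaling without haemoglobin and mitochondrial genes to 0.0050 for Cks2, 0.028 for Ube2c and 0.025 for Kif20a. With the sex score Aurka stood at 0.042. Leaving out 1 library gave -0.161 to 0.043 for Ube2c (highest without control replicate 1), -0.114 to 0.00028 for Cenpa (control replicate 1), -0.195 to 0.017 for Aurka (knockout replicate 3) and -0.164 to 0.023 for Kif20a (control replicate 2). These 15 reversals in 5 genes are among the genes named by rule only. Over the whole list, the genes below 0 numbered 37 of 46, against 23 after rescaling to TPM. That rescaling moved the median of all genes to 0.05 and left 4876 of 14149 below 0. The cause was not tested. Counting error covers sampling of reads only, and 3 libraries a group limit what could be called.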
